A study of Mus musculus with 8 samples.

Results

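The 10 stress regulators of the ATF4 and CHOP pathway described here were followed in the poly-A transcriptome of embryonic stem cells of the mouse: Atf4, Atf5, Atf3, Ddit3, Trib3, Ppp1r15a, Cebpb, Cebpg, Ddit4 and Chac1. They were chosen by name, with earlier results of these data known, so counts of calls among them describe these genes only. They were found through their Ensembl gene IDs and are 10 of the 37310 genes listed in every library. All 10 passed the filter on low counts that left 14462 genes for testing. By its title the study screened helicases by RNAi for a part in stem cell identity, and it concerns eIF4A3, the helicase of the exon junction complex, which is deposited on spliced mRNA and takes part in nonsense-mediated decay. There were 6 libraries from the J1 line, strain 129S4/SvJae. The control group had, by label, a control knockdown and a control overexpression. By their labels, 1 group had the eIF4A3 knockdown with the control overexpression (labelled knockdown), and 1 had the eIF4A3 knockdown with overexpression of Ccnb1, the gene of cyclin B1 (labelled Ccnb1). From the CCE line, strain 129/Sv, 2 libraries with the eIF4A3 knockdown label were used, and no control of that line was analysed here. All cells grew without feeders in serum and LIF, were transfected and drug-selected, infected with lentivirus, kept in puromycin at 1 µg/mL for 2.5 days and collected at day 4.5 after infection. Each group had 2 libraries. The labels do not say whether these came from separate cultures, so p-values measure the pooled spread between these samples, which may be technical. Nor do they name the knockdown or expression vectors.

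In the integrated stress response, kinases that sense amino acid shortage, unfolded protein in the endoplasmic reticulum, double-stranded RNA or haem shortage phosphorylate eIF2α. General translation then falls, while upstream open reading frames let the mRNAs of Atf4, Atf5, Ddit3 and Ppp1r15a be translated better. The ATF4 protein, a bZIP transcription factor, pairs with C/EBP proteins on composite elements and drives Ddit3, which encodes CHOP, and the other genes of the pathway. Several of these mRNAs, Atf4 and Ddit3 among them, are known targets of nonsense-mediated decay.

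Total gene counts ran from 3596615 to 8340023 in the J1 libraries and were 23965806 and 25573379 in the CCE libraries. Replicates differed by 1.88 times what Poisson noise gives in labelled Ccnb1, 3.41 times in control, 7.34 times in CCE and 22.0 times in labelled knockdown. The joint fit nonetheless gave each gene the same spread in every J1 group. Its SE and p-values can thus be too small where labelled knockdown is compared. For labelled Ccnb1 against control they can be too large. Reads listed as unaligned made up 15.7% to 15.9% of the total in control and labelled Ccnb1, 40.8% and 45.2% with the knockdown label and 0% in CCE. The counts of CCE and J1 were made in different ways, so the CCE values stand beside the J1 values with no test. Eif4a3 stood at 73.5 and 83.7 CPM, the count scaled to the total of all gene counts of a library, in control, 75.7 and 37.5 in labelled knockdown, 47.3 and 53.5 in labelled Ccnb1 and 48.8 and 53.9 in CCE. Its first library labelled knockdown lay within the control range, and its log2 fold change of -0.63 ± 0.33 (SE) did not pass (edgeR adjusted p = 0.211). Ccnb1 stood at 135 and 129 CPM in control, 101 and 126 in labelled knockdown, against 136 and 131 in labelled Ccnb1, which overlapped control. In CPM scaled by library size alone, the level of Eif4a3 thus goes against the label of the first library labelled knockdown. The scaling of the fit is not in these CPM and lowers labelled knockdown against control. For Ccnb1, both libraries labelled Ccnb1 lay above both labelled knockdown, which by label lack only the overexpression. That log2 fold change of 0.31 ± 0.14 was not called (edgeR adjusted p = 0.128). As it also overlapped control, the level of Ccnb1 did not show the overexpression of the label. The 333 and 135 Eif4a3 reads in labelled knockdown come to 15.1 and 6.14 when divided by the spread of that group over Poisson noise. Whether these 2 libraries differ beyond that spread was not tested. Whether libraries or labels were exchanged was not tested, and this doubt applies to every direction given below, which compares the groups as labelled. All 5 embryonic stem cell markers (Pou5f1, Sox2, Nanog, Zfp42 and Utf1) were detected in every library. Their summed level was 5488 to 5496 CPM in control, 2317 to 2466 in labelled knockdown, 4813 to 4841 in labelled Ccnb1 and 2208 to 2510 in CCE. Between control and labelled Ccnb1 they moved both ways. Sox2, Nanog and Zfp42 were higher in both libraries labelled Ccnb1 (Nanog at 915 and 953 CPM, beside 429 and 475 in control). Pou5f1 and Utf1 were lower there (Utf1 at 642 in both, beside 1447 and 1400). The 7 primitive endoderm markers summed to 46.8 to 53.0 CPM in control, 80.7 to 145 in labelled knockdown, where 2 were at 0 in each library (Sox7 in both), 297 to 299 in labelled Ccnb1 and 236 to 472 in CCE. The 9 fibroblast and feeder markers summed to 8.75 to 34.2 CPM in J1 libraries, with 5 to 7 at 0, and to 163 to 238 CPM in CCE with none at 0, most of it Acta2. In these bulk samples, fewer cells of a type and less RNA per cell cannot be told apart, and the part of these markers and of the unaligned reads in the results below was not tested.

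Sequence before the annotated gene start was read for the 10 genes from RefSeq (GRCm38.p6). Letters of 3 motifs were searched on both strands in windows from 250 bases before to 50 bases after each start. TGATGNAA is the core of the composite element that ATF4 shares with C/EBP proteins and reads TTNCATCA on the other strand. It was found in 3 of the 10 genes (Atf3, Chac1 and Trib3) and in 3.97% of 32851 windows. TGACGTCA, the cyclic AMP response element, was found in Ppp1r15a and in 1.79% of windows. TGACTCA, an AP-1 element, was found in Ddit3 and in 5.2% of windows. The 250 bases before the start are shown 5′ to 3′ on the strand of the gene for 4 genes, chosen because they hold a match there and took different courses in the comparisons. The capitals mark the match. They lie at chr1:191183334-191183583 (Atf3, minus strand), chr2:119350992-119351241 (Chac1, plus), chr7:45526269-45526518 (Ppp1r15a, minus) and chr10:127290543-127290792 (Ddit3, plus).
Atf3: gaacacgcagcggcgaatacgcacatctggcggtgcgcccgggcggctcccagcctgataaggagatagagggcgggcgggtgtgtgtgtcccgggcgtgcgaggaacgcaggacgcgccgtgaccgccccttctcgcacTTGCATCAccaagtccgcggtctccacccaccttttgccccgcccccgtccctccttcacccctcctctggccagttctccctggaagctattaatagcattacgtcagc
Chac1: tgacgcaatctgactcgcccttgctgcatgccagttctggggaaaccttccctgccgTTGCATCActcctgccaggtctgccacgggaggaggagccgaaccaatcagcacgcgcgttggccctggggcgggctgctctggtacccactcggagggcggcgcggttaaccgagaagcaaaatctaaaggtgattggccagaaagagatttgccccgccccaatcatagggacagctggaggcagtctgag
Ppp1r15a: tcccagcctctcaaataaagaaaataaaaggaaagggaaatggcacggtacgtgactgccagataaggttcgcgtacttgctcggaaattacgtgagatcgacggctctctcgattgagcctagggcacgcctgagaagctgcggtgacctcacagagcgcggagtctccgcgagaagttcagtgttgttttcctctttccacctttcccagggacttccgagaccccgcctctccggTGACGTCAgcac
Ddit3: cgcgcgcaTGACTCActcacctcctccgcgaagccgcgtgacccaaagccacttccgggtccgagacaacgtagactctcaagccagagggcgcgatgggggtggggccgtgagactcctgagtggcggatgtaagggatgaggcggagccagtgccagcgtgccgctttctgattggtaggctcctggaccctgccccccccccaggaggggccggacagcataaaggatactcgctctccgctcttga
The composite core in Atf3 lay at -110 to -103 and that in Chac1 at -193 to -186 from the start, with the same 8 letters. The core in Trib3 lay at 15 to 22 bases after its start. The match in Ppp1r15a lay at -12 to -5 and that in Ddit3 at -242 to -236. A match describes these letters and not a bound site, and a window without one says nothing of the factor.

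The first comparison set labelled knockdown against control. Of the 10 genes, 7 were higher and 0 lower, where 11.0% of all tested genes were called higher, 17.9% lower and 28.9% in either direction (edgeR, adjusted p under 0.05 over 14462 genes). The median log2 fold change of the 10 was 0.83, and that of all tested genes -0.085. Ddit3 moved most, and Cebpb, Cebpg and Chac1 did not pass. Levels below are CPM over all gene counts, and fold changes come from the fit with its own scaling, which lowers labelled knockdown against control.

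**Figure D1:**
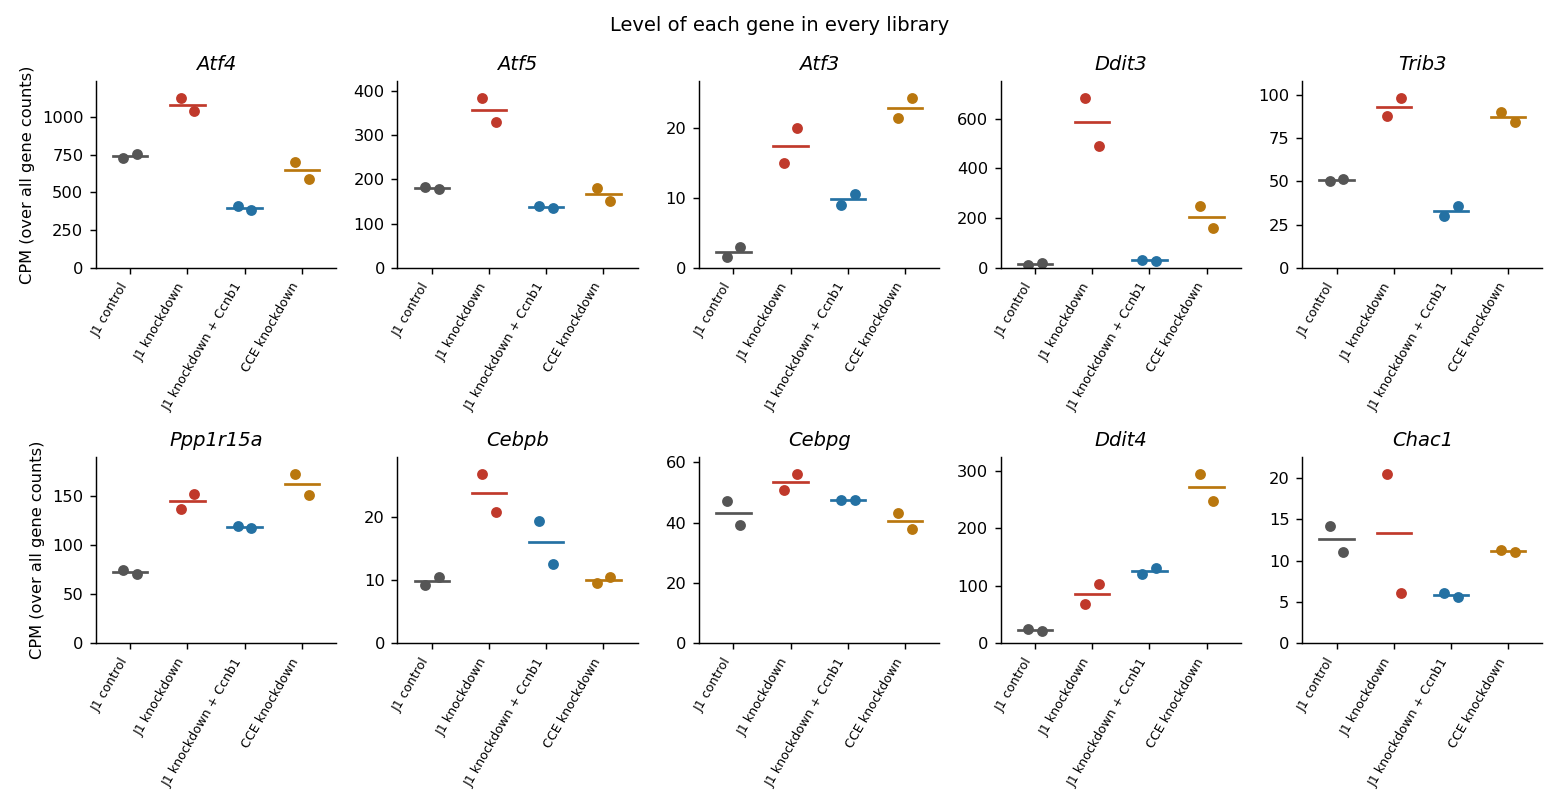
CPM of each of the 10 genes in every library (points) with the mean of the 2 libraries of each group (line), each panel with its own axis from 0. Ddit3 reaches 684 and 491 CPM in labelled knockdown and stays under 33 CPM in control and labelled Ccnb1, while Ddit4 is higher in labelled Ccnb1 than in labelled knockdown.

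Atf4, the regulator at the head of the pathway, stood at 731 and 756 CPM in control, 1127 and 1038 in labelled knockdown, 408 and 383 in labelled Ccnb1 and 704 and 592 in CCE. The 3 J1 groups did not overlap: labelled knockdown was highest and labelled Ccnb1 lowest, and CCE lay just under J1 control. Its log2 fold change in labelled knockdown against control was 0.39 ± 0.06 (SE), or 1.31-fold (edgeR adjusted p = 0.00957). Per kilobase of transcript, Atf4 was the most abundant of the 10 in all 4 groups, with means of 315 ± 7.32 (SD, n = 2) CPM per kilobase in control, 459 ± 26.7 in labelled knockdown, 168 ± 7.64 in labelled Ccnb1 and 275 ± 33.8 in CCE.

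Atf5, a bZIP factor close to ATF4 whose mRNA also carries upstream reading frames, took the same order of groups. It stood at 182 and 178 CPM in control, 384 and 330 in labelled knockdown, 140 and 135 in labelled Ccnb1 and 180 and 152 in CCE. Labelled knockdown lay clear above control and labelled Ccnb1 below it. Atf5 rose by a log2 fold change of 0.83 ± 0.09 in labelled knockdown against control (edgeR adjusted p = 0.00300).

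Ddit3 encodes CHOP, a C/EBP-like factor tied to stress-induced cell death. It stood at 12.9 and 19.1 CPM in control, 684 and 491 in labelled knockdown, 32.5 and 29.0 in labelled Ccnb1 and 248.6 and 160 in CCE. Labelled knockdown was far above every other J1 library, labelled Ccnb1 lay a little above control, and CCE lay between labelled Ccnb1 and labelled knockdown. The log2 fold change in labelled knockdown against control was 5.02 ± 0.26, or 32.5-fold (edgeR adjusted p = 0.000426), at place 142 of 14462 tested genes counted from the highest. Per kilobase, Ddit3 was the second most abundant of the 10 in labelled knockdown, at 343 ± 79.7 (SD, n = 2), and in control, at 9.33 ± 2.55, it overlapped its neighbour Cebpg. It was the only 1 of the 7 calls that held under all 15 alternative settings tried. Its exons share 68 bases with Mars on the opposite strand, and the strand handling of the counts is not given in the sources used here.

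Atf3, a stress-induced bZIP factor that also represses, had few reads. It stood at 1.57 and 2.998 CPM in control, 15.0 and 20.02 in labelled knockdown, 9.03 and 10.6 in labelled Ccnb1 and 21.4 and 24.3 in CCE. Control was lowest, labelled Ccnb1 lay between control and labelled knockdown with no overlap, and CCE was highest. These were 9 and 25 reads in control and 66 and 72 in labelled knockdown. Divided by the spread of each group over Poisson noise, they come to 2.64 and 7.34 in control and 3.0 and 3.27 in labelled knockdown. Atf3 rose by 2.76 ± 0.56 on the log2 scale in labelled knockdown against control (edgeR adjusted p = 0.0184).

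Among the effectors, Trib3, a pseudokinase that binds ATF4 and CHOP and limits their activity, stood at 50.2 and 51.4 CPM in control, 88.0 and 98.1 in labelled knockdown, 29.8 and 35.8 in labelled Ccnb1 and 89.9 and 84.4 in CCE. Labelled knockdown was highest and labelled Ccnb1 lowest of the J1 groups, as for Atf4 and Atf5. The rise in labelled knockdown against control was 0.72 ± 0.17 on the log2 scale (edgeR adjusted p = 0.0293).

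Ppp1r15a, also called GADD34, brings protein phosphatase 1 to eIF2α and so reverses the stress signal. It stood at 74.4 and 71.0 CPM in control, 136 and 152 in labelled knockdown, 119 and 118 in labelled Ccnb1 and 173 and 151 in CCE. Control was the lowest group, and labelled Ccnb1 stayed above it. The log2 fold change in labelled knockdown against control was 0.83 ± 0.11 (edgeR adjusted p = 0.00553).

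Ddit4, also called REDD1, inhibits mTORC1. It stood at 25.8 and 21.9 CPM in control, 68.7 and 104 in labelled knockdown, 120 and 131 in labelled Ccnb1 and 295 and 248 in CCE. Its order of groups differed from that of Atf4: control was lowest, labelled knockdown came next and labelled Ccnb1 was the highest of the J1 groups, with no overlap. Ddit4 rose by 1.70 ± 0.24 on the log2 scale in labelled knockdown against control (edgeR adjusted p = 0.00630).

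The remaining 3 genes did not pass. Cebpb, a partner of ATF4 and CHOP, stood at 9.23 and 10.6 CPM in control, 26.8 and 20.9 in labelled knockdown, 19.4 and 12.5 in labelled Ccnb1 and 9.51 and 10.4 in CCE. All 4 libraries of labelled knockdown and labelled Ccnb1 lay above both control libraries, with a log2 fold change of 1.11 ± 0.37 in labelled knockdown against control (edgeR adjusted p = 0.0746), and it passed under 4 of the 15 alternatives. Its exon shares 312 bases with Tmem189 on the opposite strand, so its reads and those of Tmem189 may not be told apart.

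Cebpg, a C/EBP protein that pairs with ATF4, stood at 47.2 and 39.3 CPM in control, 50.7 and 56.2 in labelled knockdown, 47.5 and 47.6 in labelled Ccnb1 and 43.3 and 38.0 in CCE. The groups lay close together, and the log2 fold change in labelled knockdown against control was 0.15, with a 95% interval of -0.20 to 0.50 (edgeR adjusted p = 0.587). Chac1, which degrades glutathione and is a target of ATF4 and ATF3, stood at 14.1 and 11.03 CPM in control, 20.5 and 6.12 in labelled knockdown, 6.13 and 5.59 in labelled Ccnb1 and 11.3 and 11.03 in CCE. The libraries labelled knockdown lay on both sides of control, and the log2 fold change was -0.07, with a 95% interval of -1.32 to 1.17 (edgeR adjusted p = 0.949). Its sign changed under other scalings: 0.09 with library size alone and 0.24 with an offset for GC content and length. Without the first library labelled knockdown it was -1.20 and called (edgeR adjusted p = 0.0101), and without the other it was 0.53.

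The calls in this comparison changed when 1 library was left out. Fold changes could move little: Atf4 was at 0.32 and 0.38 without the first and without the second control library. Without either of these, Ddit3 was the only 1 of the 10 that passed. The edgeR adjusted p without the first and without the other control library was then 0.123 and 0.0969 for Atf4, 0.0582 and 0.0616 for Atf5, 0.129 and 0.0879 for Atf3, 0.206 and 0.190 for Trib3, 0.0738 and 0.0853 for Ppp1r15a and 0.0725 and 0.0923 for Ddit4. All 6 kept a positive fold change. Trib3 and Atf3 also missed the threshold when a library labelled Ccnb1 was left out, at up to 0.103 and 0.0884, and in a fit of only the 2 groups compared, at 0.0586 and 0.0667. Trib3 missed it with a replicate block as well (edgeR adjusted p = 0.0521).

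**Figure D2:**
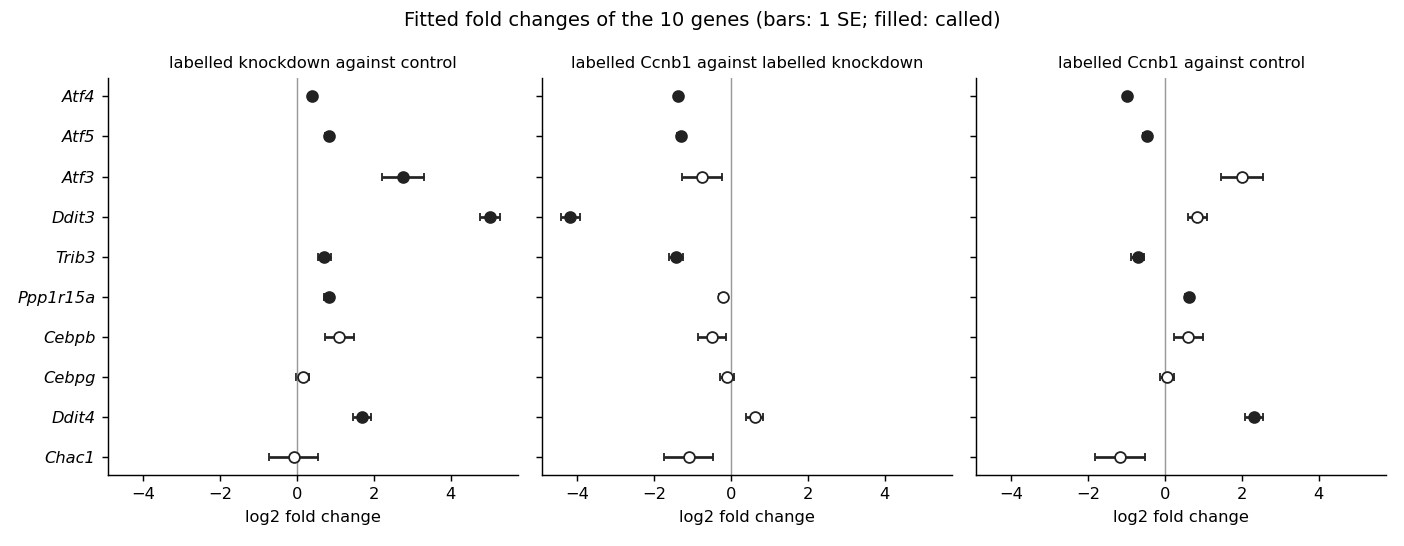
Log2 fold change of each gene in the 3 comparisons from the edgeR fit, with bars of 1 SE, filled where the adjusted p is under 0.05. Ddit3 stands at 5.02 in labelled knockdown against control and at -4.17 in labelled Ccnb1 against labelled knockdown, while Ddit4 is to the right of 0 in all 3 panels.

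The next comparison set labelled Ccnb1 against labelled knockdown, which differ in their labels by the overexpression of Ccnb1. None of the 10 genes was higher and 4 were lower, where 22.8% of tested genes were called higher, 16.0% lower and 38.8% in either direction. The median of the 10 was -0.93, and that of all tested genes 0.14. The 4 were Atf4, Atf5, Ddit3 and Trib3, and each held under all 15 alternatives.

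Atf4 fell by 1.37 ± 0.06 on the log2 scale in labelled Ccnb1 against labelled knockdown (edgeR adjusted p = 0.000183). Atf5 fell by 1.30 ± 0.09 (edgeR adjusted p = 0.000504) and Trib3 by 1.42 ± 0.17 (edgeR adjusted p = 0.00262). Ddit3 fell by 4.17 ± 0.24, or 18.1-fold (edgeR adjusted p = 0.000285). So the transcription factors at the head of the pathway, CHOP and the pseudokinase were all lower where Ccnb1 was added by label.

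For the other 6, Ppp1r15a had a log2 fold change of -0.20 with a 95% interval of -0.42 to 0.01 (edgeR adjusted p = 0.207). Ddit4 was at 0.62, with an interval of 0.17 to 1.07 (edgeR adjusted p = 0.0821), and passed under 5 of the 15 alternatives. It was higher in both libraries labelled Ccnb1 than in either labelled knockdown. Atf3 was at -0.76, Cebpb at -0.50, Cebpg at -0.09 and Chac1 at -1.10, with edgeR adjusted p of 0.303, 0.336, 0.742 and 0.239. With an offset for GC content and length Cebpg was at -0.92 and passed (edgeR adjusted p = 0.0114). Without the second library labelled knockdown Chac1 was at -1.66 and Cebpb at -0.61, and both passed (edgeR adjusted p of 6.39e-06 and 0.0408), while without the first Chac1 was at 0.058 and Atf3 at -0.90, and of these Atf3 passed (edgeR adjusted p = 0.0270).

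The last comparison set labelled Ccnb1 against control. It shares the control libraries with the first comparison, so the values are set side by side and not correlated. Here 2 of the 10 genes were higher and 3 lower, where 9.35% of tested genes were called higher, 10.5% lower and 19.8% in either direction. The median of the 10 was 0.34, and that of all tested genes 0.07.

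Atf4 was 1.98-fold lower in labelled Ccnb1 than in control, a log2 fold change of -0.99 ± 0.06 (edgeR adjusted p = 0.000941), and held under all 15 alternatives. Trib3 and Atf5 followed it downward, with -0.71 ± 0.17 (edgeR adjusted p = 0.0400) and -0.47 ± 0.09 (edgeR adjusted p = 0.0222). Neither of these held throughout: with an offset for GC content and length the Atf5 value was -0.06 and the Trib3 value -0.36, and neither passed. For Trib3 library size alone, no low-count filter, a replicate block and leaving out any control library or library labelled Ccnb1 also lost the call (edgeR adjusted p of 0.0531 to 0.341), and for Atf5 each of the same 4 left-out libraries did (0.184 to 0.228).

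Ddit4 and Ppp1r15a moved the opposite way. Ddit4 was higher in labelled Ccnb1 than in control by 2.32 ± 0.24 on the log2 scale (edgeR adjusted p = 0.00321), beside 1.70 in labelled knockdown. Ppp1r15a was higher by 0.63 ± 0.11 (edgeR adjusted p = 0.0159), beside 0.83. Without the first control library, the other, or the second library labelled Ccnb1, Ddit4 missed the threshold at 0.0632, 0.0723 and 0.0533, with values of 2.45, 2.23 and 2.28. Ppp1r15a missed it when any 1 of the 4 libraries compared was left out, at 0.132 to 0.170, with values of 0.62 to 0.68.

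The other 5 did not pass. Atf3 was at 2.00 ± 0.54 (edgeR adjusted p = 0.0541) and Ddit3 at 0.85 ± 0.25 (edgeR adjusted p = 0.0676), each with both libraries labelled Ccnb1 above both control libraries. Atf3 passed under 8 of the 15 alternatives and Ddit3 under 7. Chac1 was at -1.17 ± 0.65 (edgeR adjusted p = 0.273), Cebpb at 0.61 ± 0.37 (edgeR adjusted p = 0.311) and Cebpg at 0.06 ± 0.18 (edgeR adjusted p = 0.856). Chac1 passed under 5 of the 15 alternatives, with values of -1.22 to -1.12: without either library labelled knockdown, with voom, with counts divided by the spread and in a fit of the 2 groups alone. Cebpb passed under 3, which were counts divided by the spread and without either library labelled knockdown. Cebpg turned to -0.43 with an offset for GC content and length.

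The ratios between the genes within a library also shifted. Per 100 counts of Atf4, Ddit3 had 1.76 and 2.52 counts in control, 60.7 and 47.3 with the knockdown label, 7.97 and 7.58 in labelled Ccnb1 and 35.3 and 27.0 in CCE. Ddit4 had 3.53 and 2.90 counts in control, 6.09 and 10.02 in labelled knockdown, 29.5 and 34.1 in labelled Ccnb1 and 41.9 in each CCE library. Ppp1r15a had 10.2 and 9.39 counts in control, 12.1 and 14.7 in labelled knockdown, 29.2 and 30.7 in labelled Ccnb1 and 24.5 and 25.5 in CCE. So Ddit3 was highest against Atf4 in labelled knockdown, and Ppp1r15a and Ddit4 stood higher against it in labelled Ccnb1 and CCE than in either other group.

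Trib3 kept nearest to Atf4 among the J1 groups, with 6.86 and 6.81 counts per 100 of Atf4 in control, 7.81 and 9.46 in labelled knockdown, against 7.30 and 9.35 in labelled Ccnb1, and 12.8 and 14.3 in CCE. Atf5 stood at 24.9 and 23.6 counts in control, 34.1 and 31.8 in labelled knockdown, 34.2 and 35.3 in labelled Ccnb1 and 25.6 in each CCE library. Labelled knockdown and labelled Ccnb1 thus both lay above control for Atf5. These ratios are within a library, do not depend on its scaling and were given no test.

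**Figure D3:**
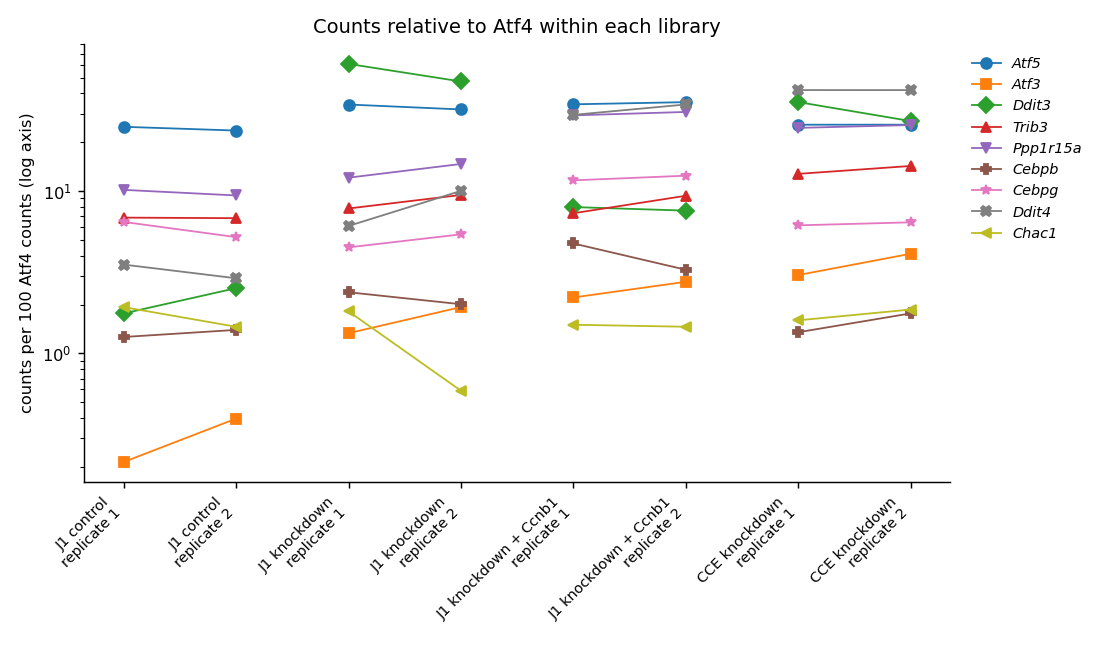
Counts of each of the other 9 genes per 100 counts of Atf4 in every library, on a log axis, with a line joining the 2 libraries of a group. Ddit3 rises from 1.76 and 2.52 in control to 60.7 and 47.3 in labelled knockdown, and Ddit4 reaches 29.5 and 34.1 in labelled Ccnb1.

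The 10 genes together summed to 1148 and 1161 CPM in control, 2600.4 and 2316 in labelled knockdown, 932 and 907 in labelled Ccnb1 and 1776 and 1469.5 in CCE. Atf4 took 63.7% and 65.1% of that sum in control and 39.7% to 44.8% in the other groups. Ddit3 took 1.12% and 1.64% of the sum in the control libraries and 26.3% and 21.2% in those labelled knockdown. Its share was 3.49% and 3.20% where Ccnb1 was added by label, and 14.0% and 10.9% in CCE. Per kilobase, the order in control ran from Atf4 and Atf5 (90.3) to Ppp1r15a and Trib3, whose libraries overlapped (24.8 and 23.9), then Ddit4 (13.6), a run of overlapping neighbours from Ddit3 over Cebpg and Chac1 to Cebpb (9.33, 7.70, 7.68 and 6.58), and Atf3 (1.06). In labelled knockdown, Atf4 was followed by Ddit3 (343), Atf5 (179), Ddit4 (49.2), which overlapped both Ppp1r15a (49.1) and Trib3 (43.8), then Cebpb (15.9) and the overlapping Cebpg, Atf3 and Chac1 (9.51, 8.13 and 8.12). In labelled Ccnb1, Ddit4 (71.5) and Atf5 (68.9) overlapped below Atf4, followed by Ppp1r15a (40.3), Ddit3 (18.0), Trib3 (15.4), the overlapping Cebpb and Cebpg (10.6 and 8.46), Atf3 (4.55) and Chac1 (3.58). In CCE, Ddit4 and Ddit3 overlapped (155 and 119), ahead of Atf5 (83.3), Ppp1r15a (55.1), Trib3 (41.0), Atf3 (10.6) and the overlapping Cebpg, Chac1 and Cebpb (7.23, 6.81 and 6.63).

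Among genes that act upstream of ATF4, the share called was near that of all tested genes in the first and the last comparison. Of 17 genes for eIF2 kinases, phosphatases and eIF2B, 0 were higher and 5 lower in labelled knockdown against control, with a median of -0.31. That is 29.4% called, beside 28.9% of all tested genes. They were Eif2s1, which encodes eIF2α, at -1.10 ± 0.13 (edgeR adjusted p = 0.00359), Ppp1r15b, the constitutive partner of the eIF2α phosphatase, at -0.53 ± 0.07 (edgeR adjusted p = 0.00546), Ppp1cb, a catalytic subunit of protein phosphatase 1, at -1.95 ± 0.37 (edgeR adjusted p = 0.0154), Ppp1ca and Eif2b4. In labelled Ccnb1 against labelled knockdown, 6 were higher and 2 lower, with a median of 0.32, which is 47.1% called beside 38.8%. Ppp1r15b was at 0.63, Eif2s1 at 0.83 and Ppp1cb at 2.36, with edgeR adjusted p of 0.00203, 0.00593 and 0.00622, and the 2 lower genes were Ppp1ca and Eif2b1. Against control, labelled Ccnb1 had 0 higher and 3 lower (Ppp1ca, Eif2b1 and Eif2b5), with a median of -0.11, which is 17.6% called beside 19.8%. In that comparison 12 of the 17 were called in a fit of only the 2 groups and with voom, and 13 with counts divided by the spread, where more of all genes were called as well. With an offset for GC content and length, the split of the second comparison turned to 2 higher and 4 lower.

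Of 30 tested genes known as ATF4 targets in amino acid supply and stress, 8 were higher and 9 lower in labelled knockdown against control, with a median of 0.03. The shares called in the 3 comparisons were 56.7%, 70.0% and 43.3%, beside 28.9%, 38.8% and 19.8% of all tested genes. Cars, a cytosolic tRNA synthetase, rose from 81.0 and 86.0 CPM in control to 313.5 and 300.3 in labelled knockdown, a log2 fold change of 1.72 ± 0.09 (edgeR adjusted p = 0.000452). Slc7a5, an amino acid transporter, and Nars, another tRNA synthetase, were lower, at -0.80 ± 0.06 and -0.92 ± 0.09 (edgeR adjusted p of 0.000884 and 0.00191). The split was 11 higher and 6 lower with library size alone and 9 higher and 6 lower with the offset.

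Of these 30 targets, 4 were higher and 17 lower in labelled Ccnb1 against labelled knockdown, with a median of -0.55. Cars was at -2.35 ± 0.09 and Eif4ebp1, a repressor of cap-dependent translation, at -1.29 ± 0.09 (edgeR adjusted p of 0.000135 and 0.000478), and the 4 higher genes were Slc7a5 (0.68, edgeR adjusted p = 0.000915), Slc7a1, Psph and Nars. Against control, 0 were higher and 13 lower in labelled Ccnb1, with a median of -0.48. Eif4ebp1 was at -1.70 ± 0.09, Shmt2, a mitochondrial serine hydroxymethyltransferase, at -1.10 ± 0.09 and Aars, a tRNA synthetase, at -0.49 ± 0.06 (edgeR adjusted p of 0.000648, 0.00192 and 0.00642). With library size alone 1 was higher and 11 lower in that comparison, and with the offset 0 and 15.

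**Figure D4:**
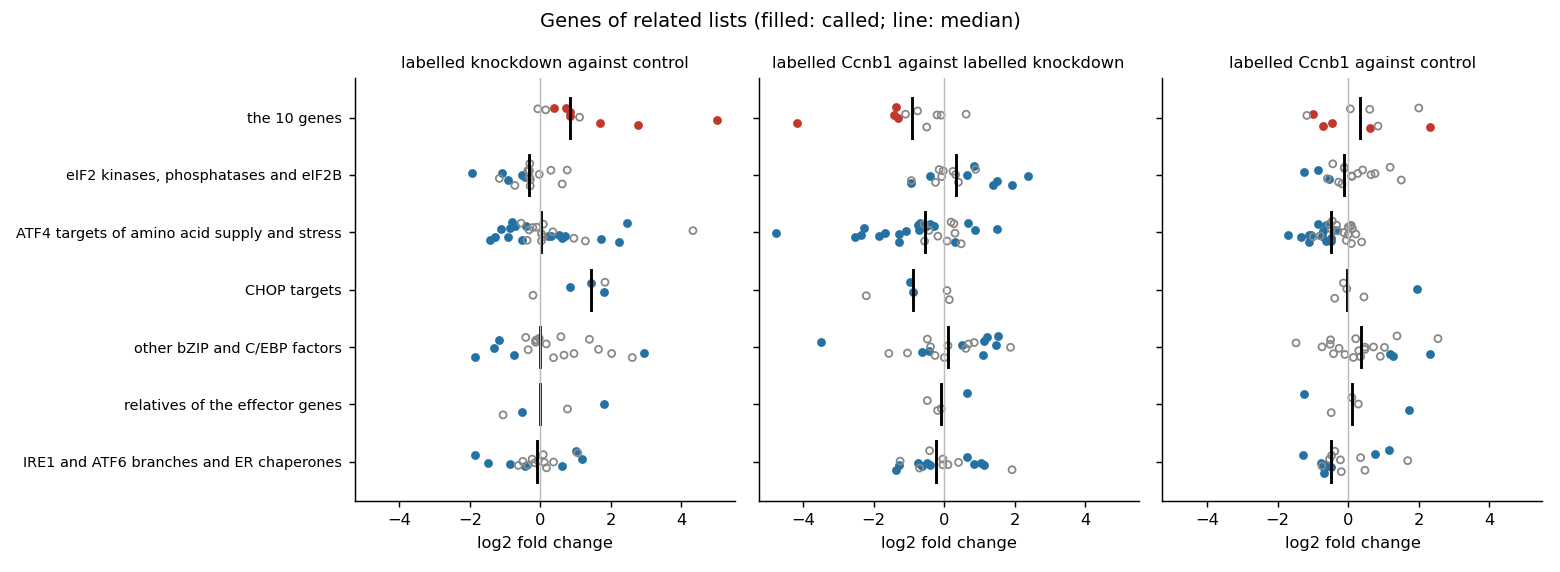
Log2 fold change of every tested gene in the 10 genes and in 6 lists of related genes, by comparison, with a line at the median, leaving out the points of genes with no count in a group compared (Trib2 and Cebpd), which enter the median at their bound. The ATF4 targets lie on both sides of 0 in labelled knockdown against control (median 0.03) and mostly below it in labelled Ccnb1 against labelled knockdown (median -0.55).

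Of 5 tested CHOP targets, 3 were higher and 0 lower in labelled knockdown against control, with a median of 1.42. Bbc3, which encodes the pro-apoptotic protein PUMA, was at 0.85 ± 0.12, Ero1l, an oxidase of the endoplasmic reticulum, at 1.82 ± 0.27 and Tnfrsf10b, a death receptor, at 1.42 ± 0.22 (edgeR adjusted p of 0.00599, 0.00767 and 0.00799). Set against labelled knockdown, labelled Ccnb1 had 0 higher and 2 lower, with a median of -0.89: Bbc3 at -0.89 and Tnfrsf10b at -0.98 (edgeR adjusted p of 0.00355 and 0.0179), and Bcl2, an anti-apoptotic gene known as repressed by CHOP, was at -2.21 and did not pass (edgeR adjusted p = 0.0919). In labelled knockdown against control Bcl2 was at 1.83 ± 0.84 and did not pass either (edgeR adjusted p = 0.162), with 2.79 and 1.68 CPM in control and 10.2 and 7.51 in labelled knockdown. The list thus holds a gene whose known direction is opposite to that of the other targets. Against control, 1 was higher in labelled Ccnb1, with a median of -0.04. It was Ero1l, at 1.96 ± 0.27 (edgeR adjusted p = 0.00750), with 28.8 and 29.9 CPM in labelled Ccnb1 and 6.45 and 7.79 in control. Tnfrsf10b (0.45) and Bcl2l11 (-0.13) did not pass there (edgeR adjusted p of 0.214 and 0.770). Among all tested genes, 28.9%, 38.8% and 19.8% were called in the 3 comparisons. The share of these 5 CHOP targets that was called lay above that of all tested genes in the first comparison. It was near that of all tested genes in the second and the last.

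A list of other bZIP and C/EBP factors gave 21 tested genes. Among them, Cebpz is listed by its name and is not a bZIP factor. In labelled knockdown against control, 1 of the 21 was higher and 5 lower, with a median of -0.03. The median was 0.00 with Cebpd, which had no count in labelled knockdown, at its bound. With Cebpd, 28.6%, 47.6% and 14.3% were called in the 3 comparisons, beside 28.9%, 38.8% and 19.8% of all tested genes. Without Cebpd, whose 0 reads are within what the spread between the libraries labelled knockdown allows, 4 were lower. The 1 higher gene was Jun, an AP-1 subunit, at 2.94 ± 0.20 (edgeR adjusted p = 0.000719), from 9.58 and 9.59 CPM in control to 75.9 and 88.4 in labelled knockdown. Atf1 and Xbp1 were lower, at -1.31 ± 0.15 and -1.85 ± 0.22 (edgeR adjusted p of 0.00318 and 0.00348). With library size alone 3 were higher and 5 lower.

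Of the same 21, 7 were higher and 3 lower in labelled Ccnb1 against labelled knockdown, with a median of 0.50 (0.10 with Cebpd at its bound), and 6 were higher without Cebpd. Atf1 was at 1.52, Cebpz at 1.22 and Creb1 at 1.47 (edgeR adjusted p of 0.00128, 0.00131 and 0.00176), and the 3 lower genes were Mafg, Fosl1 and Jun. Against control, 3 were higher and 0 lower in labelled Ccnb1, with a median of 0.35: Jun at 2.31, Cebpz at 1.18 and Nfe2l2 at 1.27 (edgeR adjusted p of 0.00184, 0.00285 and 0.0311).

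Of 5 relatives of the effector genes, 1 was higher and 2 lower in labelled knockdown against control, with a median of -0.53 (0.00 with Trib2 at its bound). Ddit4l, a relative of Ddit4, stood at 13.8 and 12.95 CPM in control, 45.02 and 59.5 in labelled knockdown, against 42.6 and 50.6 in labelled Ccnb1, so labelled knockdown and labelled Ccnb1 both lay above control. Its log2 fold changes against control were 1.81 ± 0.24 in labelled knockdown and 1.73 ± 0.24 in labelled Ccnb1 (edgeR adjusted p of 0.00530 and 0.00746). Trib2, a relative of Trib3, stood at 7.32 and 6.83 CPM in control and had 0 reads in both libraries labelled knockdown. That is within what the spread between those libraries allows, so no fold is given, and without Trib2 the count of lower genes is 1 (Ppp1r15b). Between labelled Ccnb1 and labelled knockdown, the test called 2 relatives higher and 0 lower, with a median of -0.08; 1 of these 2 is Trib2, with the same limit, and Ppp1r15b remains without it, whereas Chac2 did not pass (-0.48, edgeR adjusted p = 0.624). Against control, 1 was higher in labelled Ccnb1 (Ddit4l) and 1 lower, with a median of 0.11: Trib1 was at -1.25 ± 0.31 (edgeR adjusted p = 0.0439), and Ppp1r15b at 0.11 did not pass (edgeR adjusted p = 0.361). Among all tested genes, 28.9%, 38.8% and 19.8% were called in the 3 comparisons. With Trib2 counted, the share of the 5 relatives called was near that of all tested genes in the second comparison. It lay above that of all tested genes in the first and the last.

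The branches of the unfolded protein response that run beside ATF4, IRE1 and ATF6, and their chaperones gave 18 tested genes. Of these, 38.9%, 55.6% and 50.0% were called in the 3 comparisons, beside 28.9%, 38.8% and 19.8% of all tested genes. In labelled knockdown against control, 3 were higher (Syvn1, Dnajb11 and Ern1) and 4 lower, with a median of -0.11. Xbp1, the factor that IRE1 splices, was lower by the value given above, Sdf2l1 was at -1.50 ± 0.19 and Hsp90b1, a chaperone, at -0.44 ± 0.06 (edgeR adjusted p of 0.00488 and 0.00565). In labelled Ccnb1 against labelled knockdown, 4 were higher (Sdf2l1, Xbp1, Sel1l and Edem1) and 6 lower, with a median of -0.23. Hspa5, which encodes the chaperone BiP, was at -0.76 ± 0.04, Dnajb11 at -1.29 ± 0.14 and Syvn1 at -1.38 ± 0.16 (edgeR adjusted p of 0.000277, 0.00161 and 0.00204). Against control, 2 were higher in labelled Ccnb1 (Sel1l and Ern1) and 7 lower, with a median of -0.47, led by Hspa5 at -0.67 ± 0.04, Calr at -0.70 ± 0.07 and Pdia4 at -0.64 ± 0.08 (edgeR adjusted p of 0.000941, 0.00347 and 0.00494). With an offset for GC content and length the splits of higher and lower genes in the 3 comparisons were 4 and 2, 2 and 9, and 0 and 7.

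Genes with a pattern nearest to those of Atf4 and Ddit3 were sought among the 7565 genes whose mean over the J1 libraries reached 20 CPM, by the root mean square difference of centred log2 CPM over the 6 J1 libraries. The 4 nearest to Atf4 were Zfp579 (0.03), Rpl10a (0.06), Cdc34 (0.07) and Ppp2r2d (0.08). Zfp579 stood at 36.9 CPM in each control library, 52.8 and 50.6 in labelled knockdown, against 19.6 and 18.9 in labelled Ccnb1. The 4 nearest to Ddit3 lay farther off: Isg20 (0.48), Ahnak2 (0.61), P2rx7 (0.71) and Rcsd1 (0.75). Isg20 stood at 3.14 and 1.68 CPM in control, 78.4 and 47.0 in labelled knockdown, against 3.92 and 2.87 in labelled Ccnb1. P2rx7 stood at 11.7 and 16.7, 758 and 783.5, and 94.7 and 82.2 in the same groups.

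**Figure D5:**
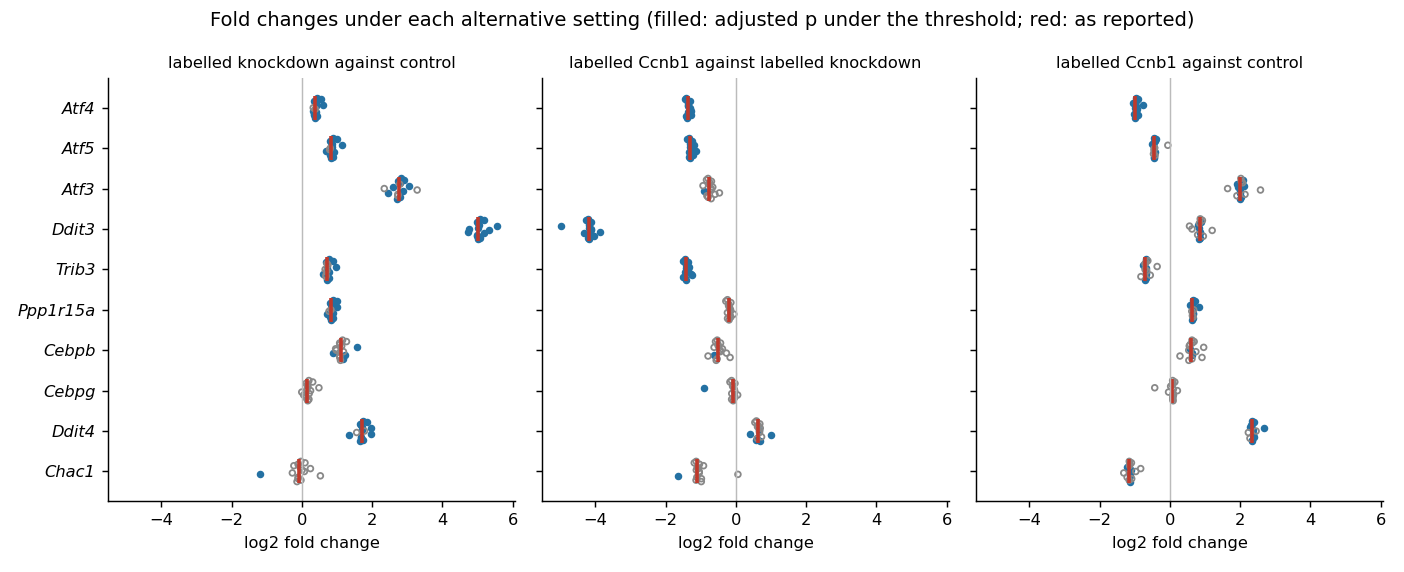
Log2 fold change of the 10 genes in each comparison under the settings tried, with the reported value marked. The values of Ddit3 and Atf4 stay on 1 side of 0 in each panel, while those of Chac1 and Cebpg cross it in labelled knockdown against control.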

How the data were processed

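For each of 8 libraries the authors deposited counts of reads for every Ensembl gene, and below them 5 summary rows. Per the submitters' processing notes, the tools were edgeR 3.26.8, HTSeq 0.11.2, SAMtools 1.9 and Bowtie2 2.3.4.3 on the build mm9, with no role, setting or strand handling. Per the labels' protocols, reads were single-end of 100 bp or paired-end of 150 bp, and no library is assigned to either. These rows entered neither library sizes nor tests. Of all reads in J1 libraries, 11.9% to 13.9% were listed outside any gene, 0.328% to 0.594% as ambiguous and 20.6% to 33.7% as of low alignment quality; CCE libraries had 48.5% and 49.5% outside any gene, 0% of low quality and 9.71% and 10.03% aligned at more than 1 place. Processed pseudogenes took 6.43% to 8.08% of gene counts in J1 and 0.168% and 0.179% in CCE. A further gene listed for CCE alone was not used.

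Symbols were matched by gene ID for 32620 of 37310 IDs, and length and GC content came from GENCODE M21, another build than mm9. Near-identical copies were searched with BLAST 2.17.0 (90% identity over at least 300 bases), and only Cebpb had one, the overlapping Tmem189. Tests used R 4.3.3 and edgeR 4.0.16 with its quasi-likelihood F test, two-sided, with TMM scaling, filterByExpr and a joint fit of the 6 J1 libraries without a replicate block, adjusted by Benjamini-Hochberg over 14462 genes and called at 0.05. The SE is the size of the log2 fold change divided by the root of F, and intervals are 1.96 SE. This multiple is that of a normal distribution. The F test, with few degrees of freedom, would give wider 95% intervals. TMM factors were 0.944 and 0.950 for control, 1.05 and 1.06 for labelled knockdown and 0.997 and 1.00 for labelled Ccnb1, whereas CPM are counts scaled by library size alone. Alternatives used DESeq2 1.42.0 and limma 3.58.1 among others. The script was run on data simulated with the same spread in every group, for labelled knockdown against control. Of 50 genes each, 12 and 10 were called at true log2 changes of 1 and -1, and 36 and 26 at 2 and -2. Among unchanged genes 2 were called. A gene that did not pass may thus still have changed. The simulation did not cover groups of unlike spread, as these are. A count of 0 allows up to 3 counts, or 0.360 to 0.834 CPM in J1 and 0.117 and 0.125 CPM in CCE. A gene with no count in a group was set at its bound against 3 counts multiplied by the spread over Poisson noise, over the group, and at 0 where that bound fell under 1-fold. Floors cover counting error only, since no molecular identifiers tell molecules from copied reads.

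The 10 genes and the gene lists were chosen with earlier results of these data known. From each list of pathway genes, the 3 genes with the smallest adjusted p in a comparison were named, and any called against most of its list where these were 5 or fewer. Other names of genes called, given without values, the Ddit4l, Trib2 and Ero1l levels, and Bcl2 in labelled knockdown against control were added after their values were seen. Fgf21, Car6, Batf, Batf3, Cebpe, Maf and Atf7 had no test. The 7 tested mitochondrially encoded genes had 0 higher and 2 lower in labelled knockdown against control, 2 and 3 in labelled Ccnb1 against labelled knockdown and 2 and 4 in labelled Ccnb1 against control. That is 28.6%, 71.4% and 85.7% called, beside 28.9%, 38.8% and 19.8% of all tested genes.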

Additional observations from a re-analysis of the deposited data

Results flagged for a closer look

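Reads listed as unaligned lie outside the gene counts that the comparisons use. They made up 40.8% of all reads in the first library labelled knockdown and 45.2% in the other, above 15.9% and 15.7% in the control libraries and 15.7% and 15.8% in the libraries labelled Ccnb1. The part of these reads in the levels of the 10 genes was not tested.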

How the results depend on the processing

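Each comparison was repeated under 15 alternatives, of which 1, limma voom with group weights, was chosen after seeing the data. Of 450 repeats over the 10 genes, 364 kept direction and side of the threshold, 39 lost the call, 37 gained one and 10 changed sign. In labelled knockdown against control 4184 genes were called; with a replicate block 2631, with only the 2 groups compared 1760, and 701 to 10225 with 1 library left out; of the 10 genes 7 were called, and 1 to 9 with a library left out. In labelled Ccnb1 against labelled knockdown 5616 were called, and 1674 to 11078 with a library left out; of the 10 genes 4, and 4 to 7. In labelled Ccnb1 against control 2865 were called, with only the 2 groups 8658, with counts divided by the spread 8385, with DESeq2 4598, with voom 8608, and 254 to 8806 with a library left out; of the 10 genes 5, with only the 2 groups 8, with counts divided by the spread 9, with voom 8, and 1 to 9. The replicate numbers did not pair the samples (correlations of their deviations -0.002, -0.0305 and 0.0274), and under the block Trib3 lost its calls against control (edgeR adjusted p = 0.0521 in labelled knockdown and 0.0634 in labelled Ccnb1). The sign changed for Cebpg in labelled knockdown against control without the second control library (-0.0031), in labelled Ccnb1 against labelled knockdown without the second library labelled knockdown (0.05) and in labelled Ccnb1 against control after correcting for GC content and length, called the offset here (-0.43) and without the second control library (-0.040). It changed for Chac1 in labelled knockdown against control with library size alone (0.089), the offset (0.24), counts divided by the spread (0.0075) and without the first control library (0.07) or the second library labelled knockdown (0.53), and in labelled Ccnb1 against labelled knockdown without the first library labelled knockdown (0.058). With 1 library left out, Cebpg ranged from -0.0031 to 0.25, -0.12 to 0.05 and -0.040 to 0.21 in the 3 comparisons in this order, and Chac1 from -1.20 to 0.53, -1.66 to 0.058 and -1.31 to -0.97. Among calls in labelled knockdown against control 38.0% were higher, with library size alone 49.3%, with the offset 56.1% and with voom 51.5%; in labelled Ccnb1 against labelled knockdown 58.7%, with the offset 34.97% and with voom 47.8%; in labelled Ccnb1 against control 47.2%, and with the offset 25.03%. The offset moved the median of all genes by 0.25, -0.47 and -0.19 in these comparisons, and library size alone moved the first by 0.15. Calls among the lists moved as follows. For eIF2 kinases, phosphatases and eIF2B in labelled knockdown against control, 2 with only the 2 groups and 2 with the offset; in labelled Ccnb1 against labelled knockdown 5 with only the 2 groups; in labelled Ccnb1 against control 12 with only the 2 groups, 13 with counts divided by the spread, 7 with DESeq2 and 12 with voom; with a library left out 0 to 11, 2 to 12 and 0 to 13. For ATF4 targets 11 with only the 2 groups in labelled knockdown against control, and 5 to 25, 6 to 25 and 1 to 19 with a library left out. For CHOP targets in labelled Ccnb1 against control 2 with only the 2 groups, with counts divided by the spread and with voom, and 0 to 5, 0 to 3 and 0 to 2 with a library left out. For other bZIP and C/EBP factors 10 with DESeq2 in labelled knockdown against control, and in labelled Ccnb1 against control 15 with only the 2 groups, 17 with counts divided by the spread, 6 with DESeq2 and 16 with voom, and 2 to 18, 4 to 18 and 0 to 17 with a library left out. For relatives of the effectors 1 in labelled Ccnb1 against labelled knockdown with counts divided by the spread and with voom, and 1 in labelled Ccnb1 against control with library size alone and with the replicate block, and 0 to 4, 1 to 3 and 0 to 3 with a library left out. For the IRE1 and ATF6 branches in labelled knockdown against control 4 with the replicate block, 4 with only the 2 groups and 11 with DESeq2, in labelled Ccnb1 against control 17 with only the 2 groups, with counts divided by the spread and with voom, and 0 to 14, 4 to 13 and 1 to 17 with a library left out. The cause of these changes was not tested, nor was the part that the shared spread of the joint fit had in them. Atf3, Cebpb and Chac1 had 22 to 118 reads in the libraries labelled knockdown, where replicates differed over all genes by 22.0 times Poisson noise, and the part of depth in their errors was not tested.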
